A study of Mus musculus with 2 samples.

Results

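Hlf, Mecom, Mllt3, Meis1, Hoxa9, Erg, Gata2 and Mycn are transcription regulators of blood stem cells, and they were followed as 8 of the 32285 genes counted in both libraries of this series. The 8 genes were chosen by their role and with their summed levels in these libraries and cell groups already known, so every level below is a description and no test was run on it. LSK cells of the bone marrow, which lack lineage antigens and carry Sca-1 and c-Kit, hold the blood stem cells with their nearest descendants. They were read by droplet single cell RNA-seq in 1 library of miR-142 WT CML mice and 1 library of miR-142 KO CML mice. Both groups were 8 to 10 weeks old B6 mice carrying SCLtTA/BCR-ABL, a transgene pair in which BCR-ABL is driven through the SCL promoter of blood stem cells once tetracycline is withdrawn, and the study's methods give 2 weeks of induction. The KO mice also lacked both copies of miR-142. Nothing in the labels says how many mice each library held, so there are no replicates, no p-value is given, and each interval is an exact 95% interval for counting error only. No library without BCR-ABL was analysed here.

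A small set of transcription factors keeps blood stem cells in their state, and most of these genes are switched down as a progenitor commits to a lineage. HLF and MECOM mark the most immature cells, MLLT3 reads acetylated chromatin within the elongation machinery, and MEIS1 and HOXA9 bind DNA together and can drive myeloid leukemia when overexpressed. ERG and GATA2 belong to a group of factors that sit together on stem cell enhancers, and GATA2 is also used by megakaryocyte and mast cell progenitors. MYCN acts beside MYC in stem cell growth and survival. miR-142 is a microRNA of blood cells, and a microRNA lowers an mRNA whose 3′ untranslated region (3′UTR) pairs with its seed, bases 2 to 8.

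The mature strands of the deleted microRNA are shown first because matches to their seeds were searched for in the 8 genes. Shorter matches and other 3′UTR forms of a gene were not searched. They are taken from the RefSeq table (GRCm38.p6, plus strand of chromosome 11, chr11:87756867-87756887 and chr11:87756903-87756925), and capitals mark the seed.
miR-142a-5p: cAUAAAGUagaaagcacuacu
miR-142a-3p: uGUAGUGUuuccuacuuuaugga
A 7-base match to a seed stood in the longest annotated 3′UTR of 3 of the 8 genes, Meis1 and Mycn for the 5p strand and Erg for the 3p strand. The matches are given below in 30 bases of each 3′UTR (minus strand of GRCm38 for all 3 genes), with the match in capitals.
Meis1 (match at chr11:18885220-18885226): aattgctgtaaACTTTATtacctgtcaaaa
Mycn (match at chr12:12936329-12936335): gagtagatattACTTTATcactttttgaac
Erg (match at chr16:95359377-95359383): tatgcatttatACACTACgagttgacctcg
None of these matches was followed by the A that extends many functional sites. Hlf, Mecom, Mllt3, Hoxa9 and Gata2 held no match to either seed, although the 3′UTR of Hlf is 4223 bases long. Among 7331 expressed genes with a 3′UTR, 16.0% held the 5p match ACTTTAT and 6.60% the 3p match ACACTAC. A match is a string of letters and not evidence of binding. All 3 genes with a match had lower levels in the KO library, as did the 5 genes without one (below).

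The promoter of Hlf, the gene with the widest gap between the libraries, is printed from 250 bases before to 50 bases after its annotated start (RefSeq, GRCm38.p6, minus strand, chr11:90390868-90391167), with the single match to the ETS factor core CCGGAA in capitals.
Hlf promoter: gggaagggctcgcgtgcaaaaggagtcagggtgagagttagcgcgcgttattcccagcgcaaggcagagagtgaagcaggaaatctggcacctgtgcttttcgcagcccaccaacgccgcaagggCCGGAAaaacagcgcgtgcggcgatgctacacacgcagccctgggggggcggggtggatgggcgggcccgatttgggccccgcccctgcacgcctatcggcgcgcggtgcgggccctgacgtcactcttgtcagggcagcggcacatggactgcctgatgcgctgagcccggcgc
Meis1, the other member on chromosome 11, also held 1 CCGGAA match in its promoter (chr11:19018920-19019219), which 14.9% of 32851 promoters do on either strand. The Hlf window held no GATA match (AGATAA, in 11.2% of promoters), no MYC E-box (CACGTG, in 7.15%) and no MEIS or PBX match (TGACAG, in 19.2%). These are letters within 1 window and say nothing of which factor acts there.

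After cells were taken as barcodes with at least 8000 UMIs and under 10% mitochondrial UMIs, 5363 WT and 5458 KO cells remained, with a median of 19443 and 24181 UMIs. The knockout was visible in the host transcript of the microRNA, Mir142hg, at 9.12 CPM (UMIs summed over cells and scaled to a common library total) in WT against 0.126 CPM in KO. Of the sort markers, Kit stood at 86.4 and 68.3 CPM and Ly6a, which encodes Sca-1, at 96.8 and 153 CPM. Wherever a pair of values is given below, the WT value comes before the KO value. The libraries shared 4 barcodes. They also differed in makeup: cells passing a gate on granule protease genes (Elane, Mpo, Prtn3, Ctsg, Ms4a3) and no other gate were 11.4% of WT and 35.5% of KO cells, and the mature neutrophil list (S100a8, S100a9, Lcn2, Ngp, Camp) summed to 73.6 CPM in WT against 509 CPM in KO, with UMIs for 5 of 5 genes in both libraries. A level over all cells therefore joins how many cells of a kind there were with how much RNA each cell held, and the gates below separate these only in part.

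Over all cells, Hlf, a PAR bZIP factor, stood at 69.6 CPM (68.2 to 71.0) in WT against 15.8 CPM (15.2 to 16.4) in KO. Its level in KO was thus lower by a log2 ratio of -2.14 (-2.20 to -2.07), the widest gap of the 8 genes. Mycn stood at 18.8 CPM in WT against 6.01 CPM in KO, a log2 ratio of -1.64 (-1.75 to -1.54). Mllt3, the YEATS-domain reader also called AF9, stood at 15.1 CPM and 6.47 CPM, a log2 ratio of -1.22 (-1.33 to -1.11). These 3 genes had intervals far apart between the libraries, and Mllt3 and Mycn passed the expression floor of a mean of 10 CPM only through the WT library.

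Meis1, the TALE homeobox partner of HOXA9, stood at 93.2 CPM in WT against 45.0 CPM in KO, a log2 ratio of -1.05 (-1.09 to -1.01). Erg, an ETS factor, stood at 40.0 CPM and 24.9 CPM, a log2 ratio of -0.68 (-0.74 to -0.62), just past the 1.5-fold line. Mecom, a PRDM zinc finger protein, stood at 18.5 CPM and 12.8 CPM, a log2 ratio of -0.53 (-0.62 to -0.45), just short of that line. The narrowest gaps were those of Gata2, at 61.2 CPM in WT against 48.8 CPM in KO (log2 ratio -0.33, -0.37 to -0.28), and Hoxa9, at 57.2 CPM and 51.2 CPM (log2 ratio -0.16, -0.21 to -0.12).

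In this comparison 5 of the 8 genes were at least 1.5-fold lower in KO and none was 1.5-fold higher, against 4.86% and 2.78% of the 7483 genes at the floor. The median log2 ratio was -0.87 over the 8 genes and -0.08 over all genes at the floor, and 16 of those genes had a lower ratio than Hlf. With both libraries weighted to the same makeup of gated groups, the Hlf ratio was -1.23, 3 of the 8 genes (Hlf, Mllt3 and Mycn, at -0.90 and -0.75 for the latter pair) were still at least 1.5-fold lower, Meis1 was at -0.34 and Erg at -0.19, and Mecom and Gata2 turned to 0.10 each.

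**Figure D1:**
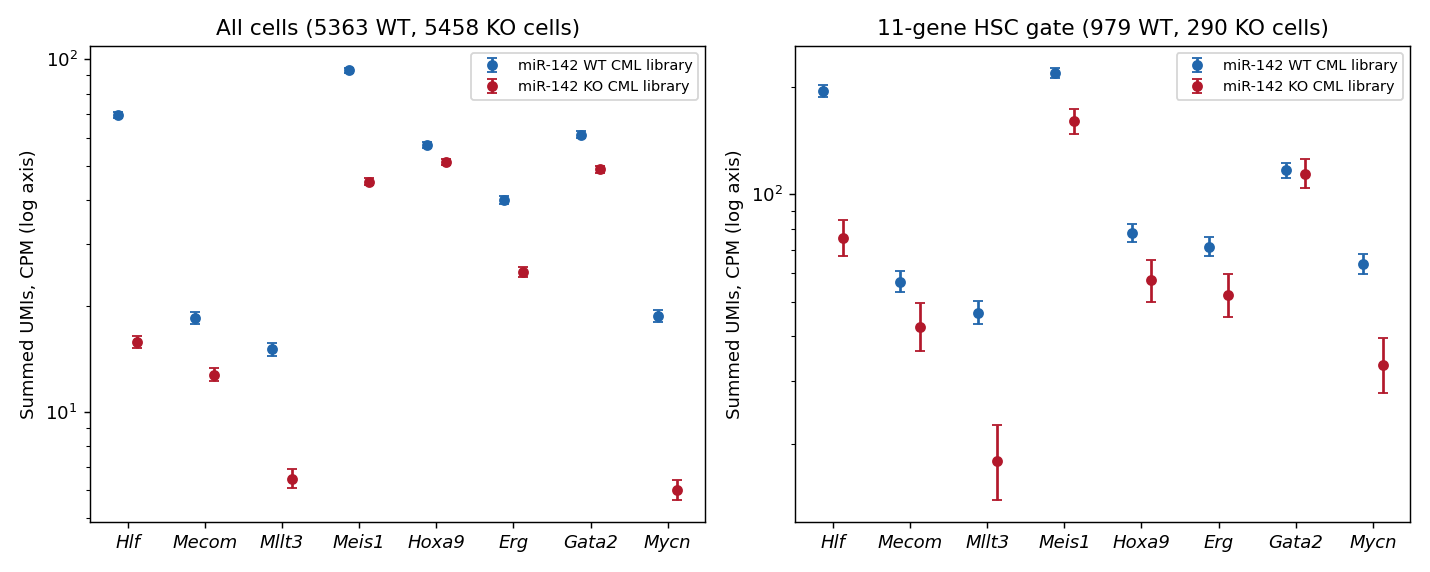
Summed UMI level of each gene in CPM (log axis) in the miR-142 WT CML (blue) and miR-142 KO CML (red) library, over all cells (left) and over cells of the 11-gene HSC gate described below (right). Points are summed levels and bars are exact 95% Poisson intervals for counting error. Over all cells each KO point lies below its WT point, and in the gate the intervals of Gata2 (117 and 114 CPM) overlap while those of Hlf (195 and 75.5 CPM) lie far apart.

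The share of cells with a UMI was lower in KO for each of the 8 genes after each cell had been thinned to 8000 UMIs. A Hlf UMI was found in 41.3% of WT and 14.5% of KO cells (62.4% and 27.3% unthinned), Meis1 in 56.8% and 36.4%, Mllt3 in 14.5% and 5.81%, and Mycn in 15.7% and 6.69%. Hoxa9 was found in 37.9% and 33.1% of cells. In the granule-gated cells, where the stem cell genes are normally low, the share with a Hlf UMI was 8.65% in WT and 4.13% in KO, at median depths of 56221 and 41344 UMIs before thinning. RNA in barcodes of at most 100 UMIs (free RNA) held Hlf at 30.1 CPM in WT against 8.16 CPM in KO. The granule-gated Hlf levels of 12.1 and 5.69 CPM lay under these. Free RNA is only a part of what a cell's barcode holds, so a level under it is not thereby background. What part of these levels was free RNA was not tested.

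To follow the genes in cells nearest to stem cells, 2 gates were used that contain none of the 8 genes. The 12-gene HSC gate summed Procr, Pdzk1ip1, Fgd5, Ifitm1, Slamf1, Tek, Esam, Sult1a1, Mmrn1, Cdkn1c, Ptpn21 and Trpc6 and asked for 25 UMIs in a thinned cell with no other gate passed, which left 920 WT and 595 KO cells. Over all thinned cells, Ifitm1 supplied 95.3% of the list's UMIs in WT and 97.9% in KO. Only Esam of the list was among the 10 leading genes of the gated cells, so this gate is an Ifitm1-led group and not a stem cell class. The cut runs through a continuous range. Among all cells, whatever other gates they passed, 224 WT and 230 KO cells were at 23 or 24 UMIs and 229 and 201 at 25 or 26. In that count 1335 WT and 1516 KO cells reached the cut.

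The 11-gene HSC gate drops Ifitm1 and asks for 2 UMIs of the other 11 genes with no lineage gate passed. It held 979 WT cells (18.3%) and 290 KO cells (5.31%), with median depths of 12700 and 11254 UMIs, and Esam, Pdzk1ip1 and Procr were among its 10 leading genes. A further 843 WT and 390 KO cells sat at 1 UMI, just under its cut. The marker genes did not stand alike between the libraries inside this gate: 6 of the 11 had an interval of the ratio below 0, 1 had an interval above 0 and 4 had intervals that cover 0. The 6 lower in KO were Procr (33.6 CPM in WT against 12.5 CPM in KO), Mmrn1 (24.6 and 1.82 CPM), Trpc6 (log2 ratio -2.47), Fgd5 (-1.56), Tek (-1.31) and Sult1a1 (-0.68). Cdkn1c was higher, at 20.9 and 30.9 CPM, while Pdzk1ip1 (90.2 and 96.8 CPM) and Esam (70.4 and 71.4 CPM) were among the other 4. The granule list summed to 854 CPM in the WT and 1732 CPM in the KO cells of this gate, the mature neutrophil list to 1.63 and 22.6 CPM (3 of 5 genes with a UMI, Ngp and Camp at 0), and the B and plasma cell list to 100.6 and 9.08 CPM (3 of 4 genes, Cd79a at 0). Their part in the levels that follow was not tested.

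In the Ifitm1-led gate, Hlf stood at 106 CPM in WT against 26.6 CPM in KO (log2 ratio -1.99, -2.17 to -1.81). Mycn was at 47.5 and 11.6 CPM (log2 ratio -2.04) and Mllt3 at 29.9 and 8.14 CPM (log2 ratio -1.87). Meis1 (log2 ratio -0.75) and Mecom (-0.59, at the 1.5-fold line) completed the 5 of 8 genes at least 1.5-fold lower in KO, against 4.37% of 7593 genes. Of these 5, Mllt3 passed the expression floor only through the WT library. Gata2 was at 61.0 CPM in WT against 61.3 CPM in KO (log2 ratio 0.01, -0.14 to 0.15), but its ratio was -0.95 (-1.38 to -0.54) with the cut doubled, -0.62 (-0.72 to -0.53) with cells of other gates kept and 0.25 (0.05 to 0.45) in cells of at least 16000 UMIs.

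In the 11-gene gate all 8 genes but Gata2 had an interval of the ratio below 0, with smaller gaps than over all cells for 6 of them (Hlf, Mecom, Meis1, Erg, Gata2 and Mycn). Hlf stood at 195 CPM (188 to 202) in WT against 75.5 CPM (67.1 to 84.7) in KO, a log2 ratio of -1.37 (-1.55 to -1.19), and 67.1% of WT and 36.9% of KO cells held a Hlf UMI after thinning. Mllt3 was at 46.6 and 17.9 CPM (log2 ratio -1.38, -1.76 to -1.02) and Mycn at 63.6 and 33.2 CPM (log2 ratio -0.94, -1.22 to -0.67). These 3 genes were the ones at least 1.5-fold lower in KO, against 4.62% of 8075 genes.

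Meis1 stood at 218 CPM in WT against 159.8 CPM in KO cells of the gate (log2 ratio -0.45, -0.58 to -0.33). Erg, at 71.2 and 52.2 CPM, and Hoxa9, at 77.9 and 57.3 CPM, had ratios of -0.45 and -0.44. Mecom was at 56.9 and 42.6 CPM (log2 ratio -0.42, -0.67 to -0.18). Gata2, at 117 and 114 CPM, gave a ratio of -0.03 with an interval from -0.19 to 0.12, and its share of cells with a UMI was 52.7% in WT and 54.8% in KO. Within this gate Gata2 was thus level, Mecom, Meis1, Hoxa9 and Erg were lower in KO by less than 1.5-fold, and Hlf, Mllt3 and Mycn had the widest gaps.

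Taking instead the cells with a UMI of Procr, the endothelial protein C receptor on stem cells, and no lineage gate left 414 WT and 66 KO cells. Hlf was at 199 CPM in WT against 69.6 CPM in KO (log2 ratio -1.51, -1.87 to -1.18) and Meis1 at 182 and 85.6 CPM (-1.09, -1.41 to -0.78). Mecom was at 53.2 and 26.4 CPM (-1.02, -1.63 to -0.46) and Mycn at 50.8 and 10.4 CPM (-2.29, -3.31 to -1.44). The KO levels of Mecom and Mycn came from 28 and 11 UMIs. Gata2 was at 86.5 and 64.9 CPM there (log2 ratio -0.41, -0.80 to -0.05), below its ratio in the 11-gene gate. This gate was added after its cells had been seen.

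The 8 genes followed the stem cell marker sum to different degrees. Compared with cells of no lineage gate and a sum of 0, cells in the 11-gene gate had levels at least 1.5-fold higher for 7 of the 8 genes in WT (all but Hoxa9), against 9.58% of 7943 genes, and for 6 of the 8 in KO (all but Hoxa9 and Erg), against 7.77% of 7699 genes. In KO, Mllt3 (7.56 CPM at a sum of 0) and Mycn (8.60 CPM) passed the expression floor only through the gated cells, where they are high. Mycn had the steepest difference, 4.83-fold in WT and 3.86-fold in KO, and was itself among the 10 leading genes of the gate. Mllt3 was 3.87-fold higher in WT and 2.37-fold in KO, and Mecom 3.19-fold and 1.84-fold. For Hlf the step was 2.54-fold in WT and 2.39-fold in KO, from different starting levels. Hoxa9 was 1.24-fold higher in WT and 1.01-fold in KO.

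Hlf was lower in KO at each marker sum. In cells with sums of 0, 1, 2, 3 and at least 4 it stood at 76.6, 122, 162, 200.4 and 257 CPM in WT and at 31.7, 54.5, 63.8, 93.3 and 104 CPM in KO. The log2 ratios were -1.27, -1.16, -1.34, -1.10 and -1.31, and no WT interval overlapped the KO interval of the same sum. The KO cells with the highest sum (39 cells, 104 CPM, 76.7 to 137) were above the WT cells with a sum of 0 (73.9 to 79.3 CPM) in level, but these intervals overlap. Mllt3 gave -0.67 at a sum of 0 and -1.61 (-2.57 to -0.78) at 4 or more, with overlapping intervals of the ratio.

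Mecom and Gata2 behaved otherwise. At a sum of 0 both were higher in KO, Mecom at 17.8 CPM in WT against 23.2 CPM in KO (log2 ratio 0.38, 0.21 to 0.54) and Gata2 at 46.4 and 64.0 CPM (0.46, 0.36 to 0.57). At a sum of 4 or more, Mecom was at 83.5 and 69.8 CPM (log2 ratio -0.26, -0.82 to 0.26) and Gata2 at 127 and 116 CPM (-0.12, -0.55 to 0.28), where the intervals cover 0.

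**Figure D2:**
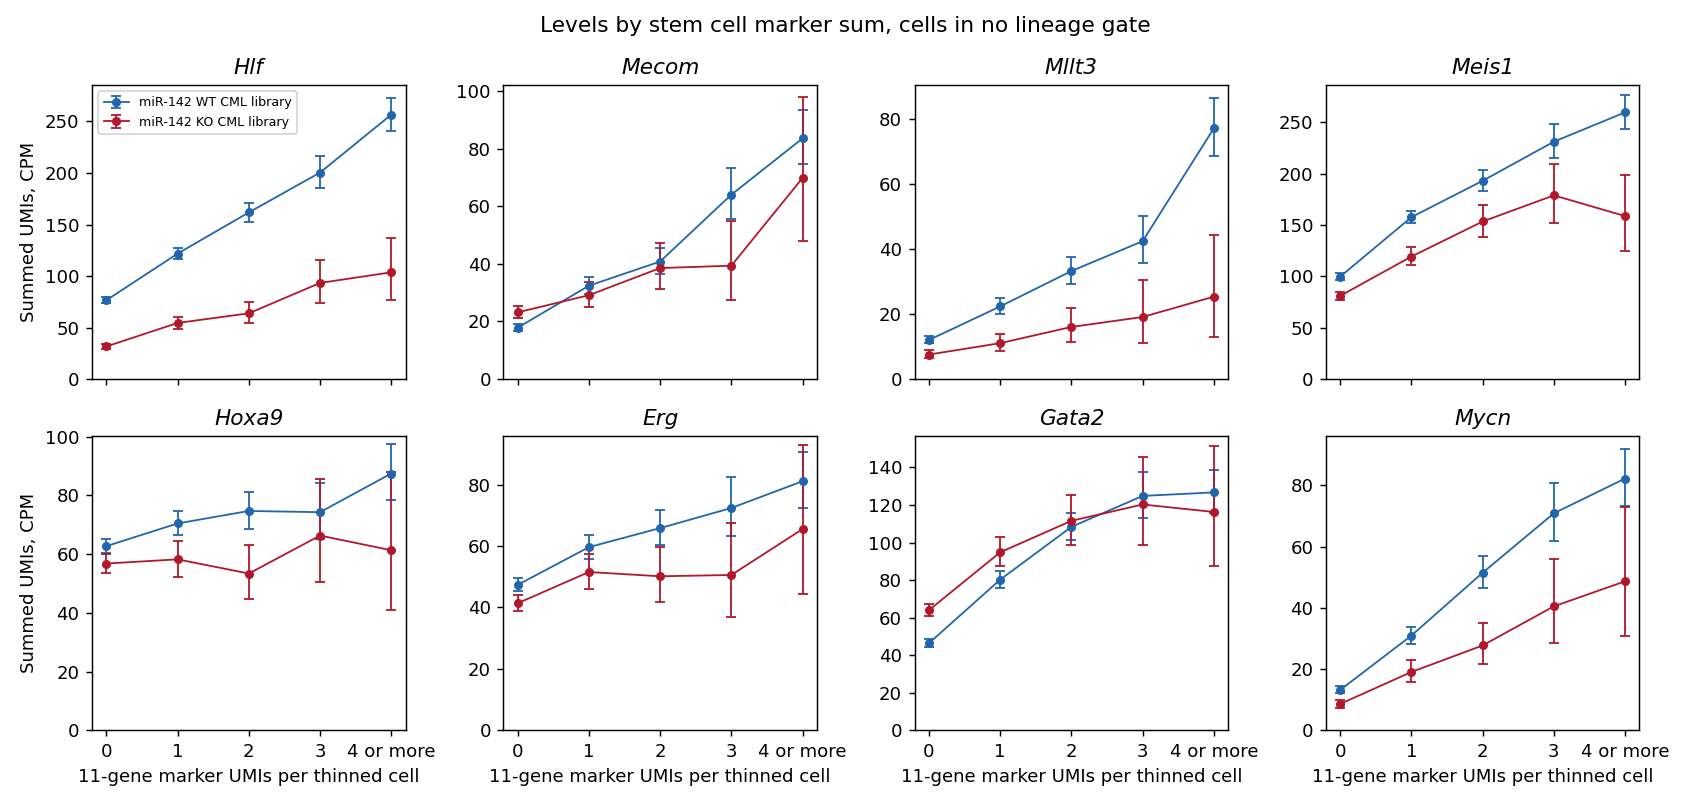
Level of each gene in CPM (axis from 0) by the number of UMIs of the 11 stem cell markers in a cell thinned to 8000 UMIs, among cells that passed no lineage gate, in the WT (blue) and KO (red) library. Points are summed levels and bars exact 95% Poisson intervals. Hlf goes from 76.6 to 257 CPM in WT and from 31.7 to 104 CPM in KO with no overlap at any sum, while the Gata2 lines cross.

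Groups share cells: 348 WT and 90 KO cells passed both HSC gates, and the other cells of the 11-gene gate are among those with no gate. Across the gated groups, the order of Hlf levels in WT was 11-gene gate (195 CPM), cells with no gate (113), Ifitm1-led gate (106), lymphoid-primed gate (84.1), megakaryocyte gate (46.3), basophil and mast gate (25.8) and granule gate (12.1). The cells with no gate (110.0 to 116) and the Ifitm1-led gate (101 to 111) had overlapping intervals, and the other neighbours did not overlap. In KO the order was 11-gene gate (75.5 CPM), lymphoid-primed gate (52.3), no gate (49.7), megakaryocyte gate (27.1), Ifitm1-led gate (26.6), basophil and mast gate (6.14) and granule gate (5.69). There the lymphoid-primed and no-gate groups overlapped, as did the megakaryocyte and Ifitm1-led groups and the last pair. Hlf was lower in KO in each of these 7 groups, with log2 ratios from -0.68 in the lymphoid-primed gate to -2.07 (-3.12 to -1.14) in the basophil and mast gate, whose KO level came from 12 UMIs. In that gate and in the granule gate Hlf was under its free RNA level in both libraries. Cells that passed several gates (474 WT and 1143 KO) held Hlf at 20.3 and 10.7 CPM, Mycn at 8.31 and 2.90 CPM and Mecom at 6.01 and 11.7 CPM. Gata2 was at 99.99 and 67.6 CPM there (log2 ratio -0.57, -0.66 to -0.47). In the 3 further gates at least 1 library held under 50 cells (erythroid 19 and 7, innate lymphoid 2 and 77, B and plasma 36 WT cells), and they were not compared.

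In the lymphoid-primed gate (Flt3, Dntt, Lsp1, Satb1 and Ccr9, 425 WT and 204 KO cells), Gata2 stood at 25.4 CPM in WT against 67.7 CPM in KO (log2 ratio 1.41, 1.14 to 1.69). Mecom was at 18.4 and 29.5 CPM (log2 ratio 0.68, 0.30 to 1.05). Both were thus higher in KO, and the WT level of Gata2 lay under its free RNA level of 51.5 CPM while the KO level lay above its 40.6 CPM. Mecom and Gata2 were the 2 of 8 genes at least 1.5-fold higher in KO and Hlf the 1 lower, against 319 and 327 of 7760 genes. Hlf was at 84.1 and 52.3 CPM, and Erg (58.8 and 53.3 CPM), Hoxa9 (75.0 and 65.5 CPM) and Mycn (11.1 and 15.0 CPM) had intervals of the ratio that cover 0. The gate's own list stood at 1113 CPM in WT against 694 CPM in KO and its granule list at 1544 and 2598 CPM. Raised cycle markers (S phase or G2/M, below) were found in 62.1% of WT and 34.8% of KO cells of the gate. What part these differences had in the Gata2 level was not tested.

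In the granule-gated cells (613 WT and 1935 KO) all 8 genes stood below their level over all cells of the same library, Hoxa9 by the least. Hoxa9, which stays on in myeloid progenitors, was at 44.0 CPM in WT against 49.96 CPM in KO (log2 ratio 0.18, 0.10 to 0.27). Mecom was at 2.15 and 6.07 CPM (log2 ratio 1.496, 1.14 to 1.87) and Gata2 at 6.86 and 14.9 CPM (1.12, 0.92 to 1.33). Both genes were below their free RNA levels in both libraries (10.4 and 6.62 CPM for Mecom, 51.5 and 40.6 CPM for Gata2). What part of the gated levels was free RNA was not tested. Of the 4 members at the floor here, only Gata2 was at least 1.5-fold higher in KO and none was lower, against 198 and 153 of 7003 genes. Gata2 passed the floor only through the KO library. Mycn was at 0.775 and 0.430 CPM. S100a8 and S100a9 led this group beside Elane, so it is named here only by its gate.

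In the megakaryocyte gate (Pf4, Itga2b, Gp1bb, Gp9, Gp5, Cavin2 and Ppbp, 201 WT and 226 KO cells), Mycn had its highest level of the 7 groups in both libraries, at 91.9 CPM in WT against 85.8 CPM in KO, and did not differ beyond its interval (log2 ratio -0.10, -0.32 to 0.13). Meis1, which is required for megakaryocyte formation, was at 225 and 151 CPM (log2 ratio -0.58, -0.74 to -0.42). Mllt3 was at 27.5 and 10.2 CPM (log2 ratio -1.43, -2.03 to -0.87) and Hlf at 46.3 and 27.1 CPM (-0.78, -1.15 to -0.41). These last were the 2 of 8 genes at least 1.5-fold lower in KO, against 5.22% of 7803 genes.

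Gata2, a factor of mast cell identity, had its highest level in the basophil and mast gate (89 WT and 99 KO cells), at 445 and 477 CPM, with a log2 ratio of 0.10 (-0.03 to 0.24). In the same cells Mecom was at 7.37 CPM in WT (14 UMIs) and 28.1 CPM in KO (55 UMIs). Its log2 ratio was 1.93 (1.07 to 2.90), and its free RNA level was 10.4 CPM in WT and 6.62 CPM in KO. Mecom passed the expression floor here only through the KO library. Gaps past 1.5-fold were common in this gate: 1018 of 7560 genes rose that far in KO and 1104 fell. Of the 7 members at the floor, Mecom and Mllt3 were among the former and Hlf among the latter. Raised cycle markers were found in 59.6% of WT and 22.2% of KO cells of the gate. What part this had in the Mecom level was not tested. Among the 2584 WT and 1172 KO cells that passed no gate, Hlf (113 and 49.7 CPM, log2 ratio -1.18) and Mllt3 (19.0 and 10.3 CPM, -0.88) were the 2 of 8 genes at least 1.5-fold lower in KO, against 2.05% of 7762 genes. Mecom was level there, at 27.3 and 28.4 CPM, and Gata2 stood higher in KO, at 70.9 and 84.4 CPM (log2 ratio 0.25, 0.17 to 0.34).

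**Figure D3:**
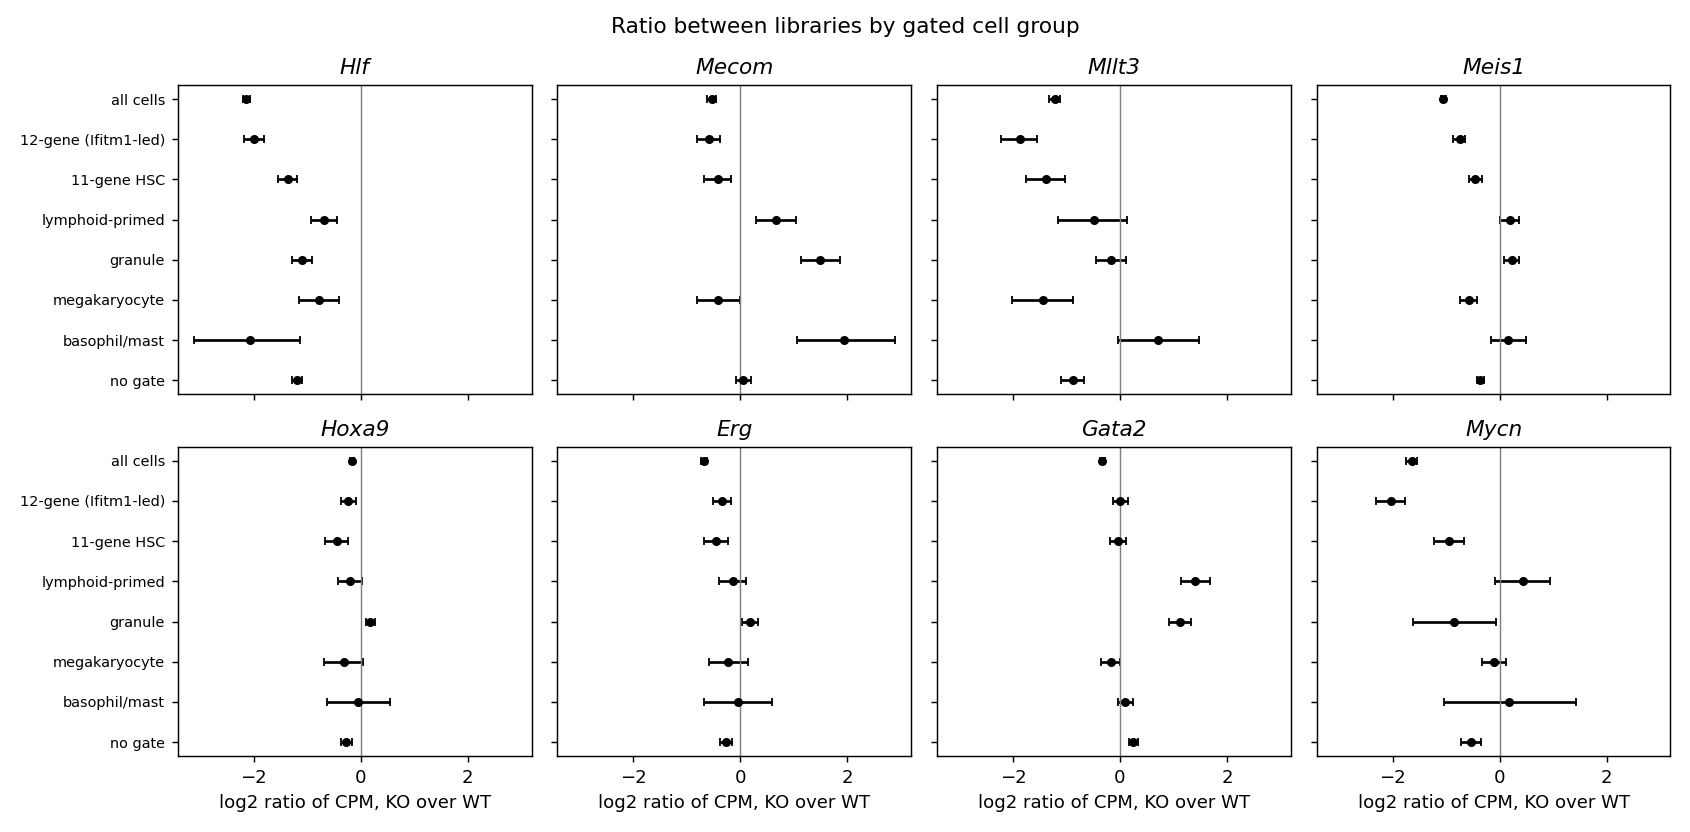
Log2 ratio of CPM, KO over WT, for each gene in all cells and in 7 gated groups, with exact 95% conditional binomial intervals for counting error. The vertical line marks 0. Each Hlf point lies left of 0, while Mecom spans from -0.59 in the Ifitm1-led gate to 1.93 in the basophil and mast gate and Gata2 reaches 1.41 in the lymphoid-primed gate.

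Cycling cells were set apart by S phase and G2/M markers, which were raised in 65.4% of WT and 64.0% of KO cells. Hlf, which is tied to quiescence, was higher in the cells with low cycle markers in both libraries. In the 11-gene gate it stood at 221 CPM (low) and 175 CPM (raised) in WT, and at 93.6 and 56.7 CPM in KO. Mycn showed the same order, at 90.6 and 43.3 CPM in WT and 42.7 and 23.3 CPM in KO. The KO to WT ratio of Hlf was -1.24 (-1.47 to -1.02) in the low and -1.63 (-1.92 to -1.34) in the raised cells, so the gap was present in both. Gata2 was at 0.14 (-0.07 to 0.34) and -0.29 (-0.53 to -0.05).

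The genes were also counted together in each thinned cell. In the 11-gene gate a WT cell held UMIs of 3.83 of the 8 genes on average and a KO cell 2.88. At least 4 of the genes were found in 58.5% of WT (55.4 to 61.6%) and 29.7% of KO cells (24.5 to 35.3%). None was found in 1.02% and 2.41%. Hlf and Mecom UMIs occurred together in 25.1% of WT (22.4 to 28.0%) and 10.0% of KO cells (6.80 to 14.0%). In WT a Hlf UMI was found in 73.2% of the 336 gated cells with a Mecom UMI and in 63.9% of those without, and in KO in 35.8% of 81 cells and 37.3%. Over all cells the average was 2.50 genes in WT and 1.61 in KO, with at least 4 genes in 28.1% and 10.0% of cells.

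**Figure D4:**
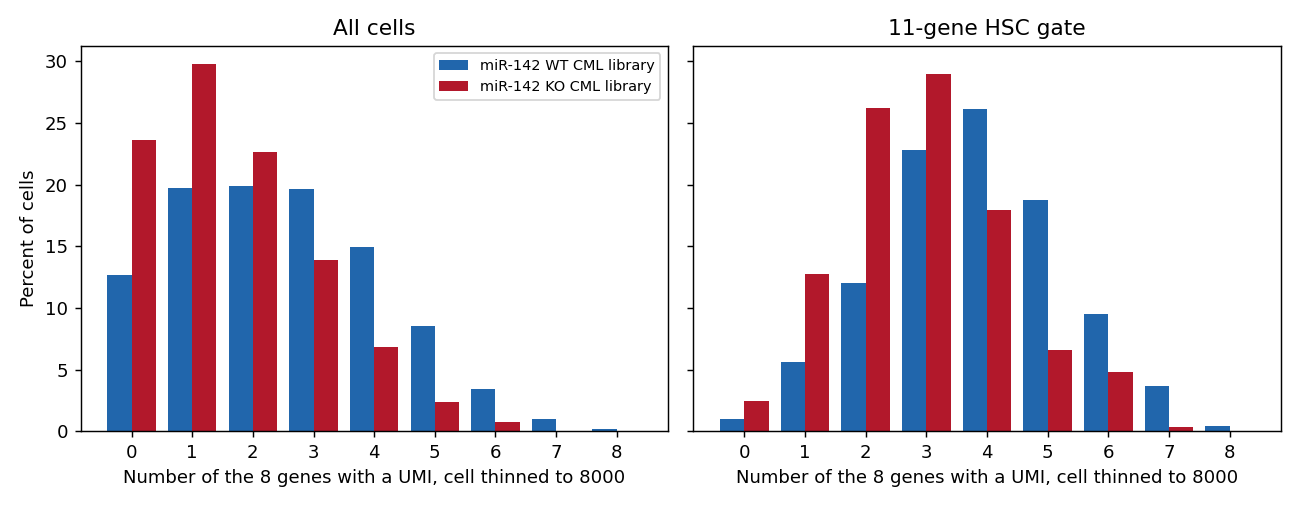
Percent of cells by how many of the 8 genes had a UMI after thinning to 8000 UMIs, over all cells (left) and in the 11-gene HSC gate (right), in the WT (blue) and KO (red) library. In the gate the WT bars peak at 4 genes (256 of 979 cells) and the KO bars at 3 (84 of 290 cells).

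The log2 levels of the 8 genes were compared over the 14 points given by 7 cell groups in 2 libraries. These groups were the Ifitm1-led, lymphoid-primed, granule, megakaryocyte, and basophil and mast gates, cells with no gate and cells of several gates. The 11-gene gate was not among them. This is a description, since the points share libraries, depth and gates. Meis1 was most like Mycn (Pearson r = 0.93) and Mecom (0.89), Hlf was most like Erg (0.90), and Gata2 stood apart from Hlf (0.02) and Hoxa9 (-0.61). Among all 7483 genes at the floor, the nearest to Hlf were Gcnt2 (r = 0.98), Numa1 (0.97) and Gm19590 (0.97). Zbtb20, Angpt1 and Itih5 were nearest to Meis1 (0.98 to 0.99), Slc18a2, Lat and Blvrb to Gata2 (0.95 to 0.98), and Slco3a1, Hoxa7 and Def6 to Hoxa9 (0.95 to 0.97). Mycn had Uba7, Pear1 and Esam (0.95 to 0.97), Erg had Zfp608, Selenop and Slc25a27 (0.97 each), and Mecom had Cbr1, Ctla2b and AC149090.1 (0.95 to 0.96). Esam is a marker of the 11-gene gate.

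For the families and partners of the 8 genes, 58 other regulators had been listed and 35 of them reached the floor over all cells. Of these 35, 5 were at least 1.5-fold lower in KO and 1 was higher, against the 4.86% and 2.78% of all genes given above, with a median log2 ratio of -0.20. Among the lower ones were Bcl11a, a zinc finger repressor of lymphoid progenitors and stem cells (97.5 and 48.9 CPM, log2 ratio -0.995), Egr1 (235 and 146 CPM, -0.69), Foxo3, a factor of quiescent stem cells (32.5 and 20.6 CPM, -0.66), and Tal1, the SCL gene itself (27.7 and 18.2 CPM, -0.61). The higher one was Gfi1, a repressor active in granulocyte progenitors (22.3 and 50.9 CPM, 1.19). Myc, the sister of Mycn, was level at 163 and 162 CPM, and Spi1, the myeloid ETS factor, was at 193 and 231 CPM (0.26).

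In the 11-gene gate 43 of the 58 reached the floor, 1 was at least 1.5-fold lower and 2 were higher, against 4.62% and 2.92% of 8075 genes. Gata3 was lower, at 16.8 and 6.23 CPM (log2 ratio -1.43, -2.10 to -0.83), and passed the floor only through the WT library. Hes1, a target of Notch, was higher at 10.9 and 51.4 CPM (2.24, 1.93 to 2.55), as was Mxd4, a MAX partner that opposes MYC, at 49.5 and 74.5 CPM (0.59, 0.39 to 0.79). Myc was at 142.4 CPM in WT against 201 CPM in KO there (0.49, 0.37 to 0.61), with Mycn at -0.94 in the same cells. Egr1 was at 460 and 549.8 CPM (0.26), and Tal1 was level at 51.9 CPM in both. Tcf15, a marker of the least active stem cells, lay under the floor with 163 WT and 11 KO UMIs (log2 ratio -1.96, -2.99 to -1.08). The other PAR bZIP genes, Dbp (-0.02) and Tef (-0.26), had intervals that cover 0 in this gate, on 48 and 30 KO UMIs, whereas over all cells both were lower in KO, Dbp at -0.59 (-0.72 to -0.46) and Tef at -0.43 (-0.58 to -0.28), both under the floor. Of the 6 genes listed with Mllt3, Kmt2a was lower in the gate (-0.50, -0.68 to -0.31), and the intervals of the others, among them Mllt1 at 0.40 (-0.05 to 0.84) and Dot1l at -0.31 (-0.71 to 0.07), cover 0.

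Hlf (ENSMUSG00000003949) lies on the minus strand of chromosome 11 in GRCm38, chr11:90336536-90390895, 2579266 bp from Mir142hg on the same chromosome. Alleles linked to the deleted microRNA and the deletion itself cannot be told apart in this design. Of its 7 nearest neighbours listed, Stxbp4 (11.8 CPM in WT against 4.57 CPM in KO, log2 ratio -1.37, -1.50 to -1.24), Tom1l1 (6.38 and 3.35 CPM, -0.93) and Tmem100 (76 and 38 UMIs, -1.20) also had lower levels in KO over all cells. These 3 and Mmd were under the floor. Cox11 (0.04) and Mmd (0.10) had intervals that cover 0, Pctp was at -0.32 and Gm45716 at 0.41. The other genes lie at chr3:29951296-30548008 (Mecom), chr4:87769925-88033364 (Mllt3), chr6:52223100-52231089 (Hoxa9), chr16:95359169-95586593 (Erg) and chr12:12936093-12941914 (Mycn), all on the minus strand, and at chr6:88193891-88207032 on the plus strand (Gata2). Meis1 (chr11:18879817-19018985, minus strand) is overlapped on the opposite strand by Gm16140 (830 and 286 UMIs) and Gm16141 (634 and 298 UMIs), which had lower counts in KO as Meis1 did.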

How the data were processed

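Droplet 3′ libraries (Next GEM kit) of LSK cells were made from 1 sample per group. The deposited values are raw UMI counts per gene and barcode, which the authors made with Cell Ranger (6.1.2 per the labels and methods, 4 per the file headers) on build mm10 per the labels, with no filter on barcodes and no normalization.

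Cells needed at least 8000 UMIs and under 10% mitochondrial UMIs, against over 300 UMIs in the study's methods. Each cell was thinned to 8000 UMIs for gates and shares. A gate was passed on the summed UMIs of its list: 25 for the 12-gene list, 2 for the 11-gene list, 5 for the lymphoid-primed, megakaryocyte, erythroid and innate lymphoid lists, 50 for granule genes, and 20 for the basophil and mast and the B and plasma lists. Raised cycle markers meant 10 G2/M or 12 S phase UMIs. Lists and members were chosen with earlier results of these data known, and gate cuts were set from the gate sums without the members' values.

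Levels are counts summed over cells in CPM, with exact Poisson intervals. Ratios carry exact conditional binomial and shares Clopper-Pearson intervals (scipy 1.17.1). With 1 library per group no test was run. Calls used a fold of 1.5 and a mean of 10 CPM. Similarity used log2(CPM + 1). Doublets were kept: Scrublet (scanpy 1.11.5) marked 4 WT and 5 KO cells (0.0746% and 0.0916%) on its own threshold, which had not worked, so an alternative removed the 230 and 238 highest scores. The code was tested on simulated data. Genes named were the members, the family, partner and marker lists, the 3 genes most like each member, and the neighbours of Hlf. Positions came from GENCODE and RefSeq tables of GRCm38. The values of some genes that these rules select are not reported here.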

Additional observations from a re-analysis of the deposited data

Results flagged for a closer look

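For 4 of the 8 genes the ratio between the libraries pointed both ways across gated groups, with intervals below 0 in some and above 0 in others. For Mecom the log2 ratio (KO over WT) was -0.59 in the Ifitm1-led 12-gene gate, -0.42 in the 11-gene HSC gate and -0.41 in the megakaryocyte gate, and 0.68 in the lymphoid-primed gate, 1.496 in the granule gate and 1.93 in the basophil and mast gate. Meis1 was at -0.75, -0.45 and -0.58 in the same HSC and megakaryocyte gates and at -0.36 in cells with no gate, against 0.19 in the lymphoid-primed and 0.23 in the granule gate. In the 12-gene gate, the 11-gene gate and cells with no gate, Hoxa9 was at -0.23, -0.44 and -0.26 and Erg at -0.34, -0.45 and -0.26, against 0.18 in the granule gate for each. With 1 library per group the difference between these cell groups was not tested. The granule-gated levels of Mecom (2.15 and 6.07 CPM) lie below those of free RNA (10.4 and 6.62 CPM).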

How the results depend on the processing

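Over all cells the 5 genes at least 1.5-fold lower became 3 when both libraries were weighted to the same makeup of gated groups, where the Hlf log2 ratio was -1.23 and Mecom and Gata2 turned to 0.10 each, and 6 without cells with raised cycle markers. That makeup used the 12-gene and not the 11-gene HSC gate. Otherwise the Hlf ratio of -2.14 moved only to -2.06 with a median-of-ratios size factor and likewise with over 300 UMIs (-2.06), -2.21 with at least 16000 UMIs, -2.04 without cells with raised cycle markers and -2.03 after thinning. In the Ifitm1-led gate 5 genes became 3 with at least 16000 UMIs and 3 with Ifitm1 left out of the gate, 4 with a median-of-ratios size factor and 4 with totals that leave out the 100 most abundant genes, 6 with cells of other gates kept and 7 with the cut doubled, and the Hlf ratio of -1.99 became -1.37 without Ifitm1, -2.65 with the cut doubled and -2.28 with cells of other gates kept. With 2 alternatives chosen after seeing the data it was -1.31 (cut doubled, no Ifitm1) and -1.51 (cells with a Procr UMI). Over all 152 ratios under these alternatives, 79 stayed within the counting interval of their main value and 71 moved outside it. A further 2 changed sign from a clear main value, and 147 of the 152 were below 0. Without a filter on low counts 5928 genes (28.5%) were at least 1.5-fold lower over all cells, and with a mean of 50 CPM 69 (2.52%), against 364. No paired analysis was possible because each group is 1 library and the labels carry no replicate numbers, and no replicate could be left out for the same reason. Counts were low in some gates, with 290 KO cells in the 11-gene gate and 12 KO Hlf UMIs in the basophil and mast gate. Differences between mice, sorts and library preparations cannot be told apart from the genotype.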
